A study of Mus musculus with 10 samples.

Results

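The genes carried by the mitochondrial genome were followed in regulatory T cells (Tregs) of the mouse colon. The members are all rows of the count table whose name begins with mt-, which gave 37 of 54532 genes: 13 coding genes, 2 ribosomal RNAs (rRNAs) and 22 transfer RNAs (tRNAs). The Tumor group held 5 libraries of Tregs from colon tumours of Apc Min/+ mice, which carry a truncated copy of the Wnt pathway inhibitor Apc and form intestinal tumours. The WT group held 5 libraries of Tregs from mice labelled WT, with colon as the tissue. Both groups carried Foxp3 DTR, a diphtheria toxin receptor driven by the Treg factor Foxp3, and all mice were male, on C57BL/6 and 16 weeks old. Tregs had been sorted as GFP+ cells that also bore CD45, CD3, CD4 and CD25, and RNA was read by Smart-seq2, which copies polyadenylated RNA at full length from few cells. Whether each sample is its own animal is not stated in the labels, so p-values measure only the spread between these samples, which may be technical. Where 5 values of a group are given, they stand in the order of the replicate numbers 1 to 5.

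Mitochondrial DNA is a small circle that is read from both strands as long precursors. In mammals the tRNAs sit between most of the other genes, and cutting them out releases the mRNAs and rRNAs, of which most then receive short A tails. All coding members are subunits of the respiratory chain or of ATP synthase and are made on mitochondrial ribosomes, whereas every protein that copies, transcribes or translates this genome is made from nuclear genes. Tregs are known to rely on mitochondrial respiration more than conventional effector T cells do.

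Libraries held 3054435 to 7747699 counts in Tumor and 1676229 to 8412887 in WT. All 14 T cell markers and all 8 Treg markers, Foxp3 and Il2ra among them, had reads in every library. Their levels differed: the T cell markers summed to 4686 to 6955 CPM (counts scaled to 1e+06 per library, by the column total) in Tumor and to 178 to 1718 CPM in WT. The libraries were also unequal in RNA of other cells. Summed CPM of 16 colon epithelium markers was 141, 45.5, 1244, 2224 and 5764 in Tumor and 27460, 36270, 249, 168 and 282 in WT, with 7 of the markers at 0 in Tumor replicate 2, 2 at 0 in WT replicate 4 and none at 0 in the other libraries. Macrophage and monocyte markers summed to 1341 to 6070 CPM in Tumor and 67.7 to 172 CPM in WT. B cell and plasma cell markers summed to 76.3 to 445 CPM in Tumor and to 211, 353, 3651, 404 and 100 CPM in WT. Gm10800, a predicted gene, took 9.92%, 22.3% and 26.5% of the counts of WT replicates 3, 4 and 5, against 0.844 to 5.77% of the other libraries. The part of these differences in the results on mitochondrial genes was not tested, and values without the WT libraries concerned are given beside the results. In bulk samples of this kind, fewer cells of a type and less RNA per cell cannot be told apart.

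Mitochondrial genes took a similar share of the counts in most Tumor and WT libraries, and a far larger one in WT replicate 1. All members together held 1.65%, 2.87%, 2.73%, 5.27% and 2.09% of the counts in Tumor, against 23.2%, 5.34%, 2.04%, 2.37% and 1.09% in WT. The groups overlapped, with medians of 2.73% in Tumor and 2.37% in WT and means of 2.92 ± 1.40% and 6.80 ± 9.29% (SD, n = 5 each). The 2 rRNAs held more than the coding genes in every library but WT replicate 2, with 1.33%, 2.45%, 2.25%, 4.13% and 1.24% in Tumor and 18.6%, 1.94%, 1.40%, 2.07% and 0.638% in WT. The 13 coding genes held 0.312%, 0.415%, 0.474%, 1.14% and 0.852% in Tumor and 4.57%, 3.39%, 0.638%, 0.296% and 0.439% in WT. WT replicates 1 and 2, the libraries highest in epithelial markers, were thus also the highest in mitochondrial coding counts, and in Tumor the highest libraries by both measures were replicates 4 and 5. The 22 tRNAs together held at most 0.00538% in Tumor and 0.0186% in WT. The widest 95% Wilson interval of any of these shares was ± 0.0346 percentage points, which covers counting error alone, since reads without molecular identifiers include amplification copies.

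**Figure D1:**
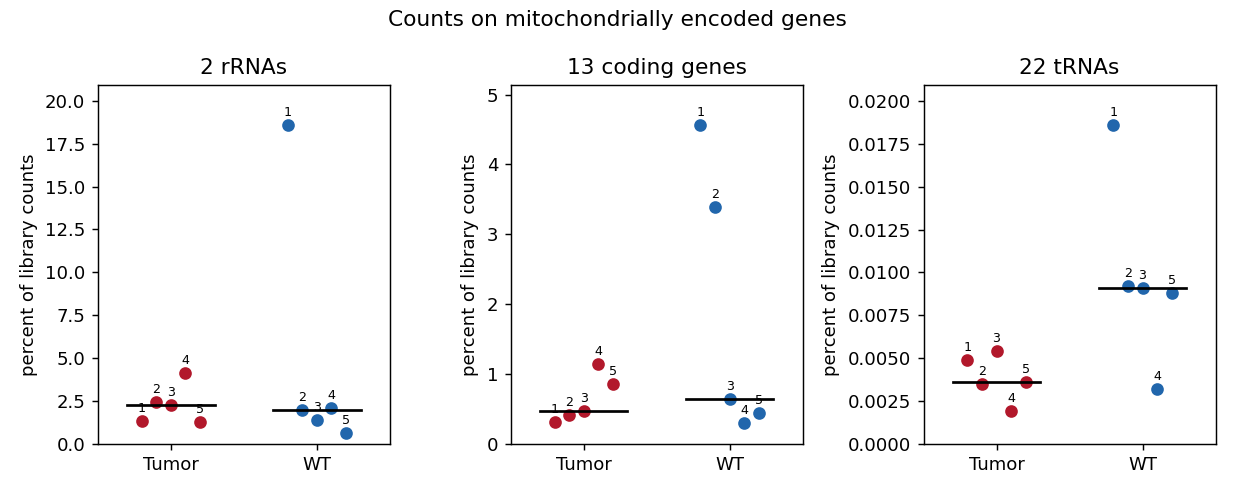
Percent of each library's counts on the 2 rRNAs, the 13 coding genes and the 22 tRNAs of the mitochondrial genome. Points are libraries with their replicate number and bars are medians of 5. WT replicate 1 stands at 18.6% for the rRNAs, above the 4.13% of the highest Tumor library, and WT replicates 1 and 2 lead the coding genes at 4.57% and 3.39%.

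The comparison of Tumor with WT asks whether Tregs of a colon tumour differ from colon Tregs in their mitochondrial transcripts. With all 10 libraries, no mitochondrial gene passed the test, for which edgeR's quasi-likelihood fit was used and p was adjusted by Benjamini-Hochberg over the 21414 genes tested, with a threshold of 0.05. Of the 37 members, 18 had enough counts to be tested: 11 coding genes, both rRNAs and 5 tRNAs. None of the 18 was called, against 1.59% of all genes tested (0.219% lower in Tumor, 1.37% higher), and 2 (mt-Nd5 and mt-Nd6) had an unadjusted p below 0.05, against 16.1% of all genes (8.31% lower in Tumor). DESeq2 called the same 2 lower, against 4.48% of all genes called lower and 3.16% called higher. It gave no adjusted p for mt-Rnr2 and mt-Ti, and limma voom called 0. The fitted log2 fold changes, on libraries scaled by the trimmed mean of M values (TMM), were negative for 17 of the 18, beside 56.2% of all genes tested, with a median of -1.34 beside -0.20. They ran from -2.06 for mt-Nd6 to 0.25 for mt-Nd3. With limma voom the median of the 18 was -0.20. CPM ranges of the groups did not overlap in 1 of the 37 members, mt-Tt, named here after its values were seen. This tRNA gene for threonine was not tested and had 0, 0, 2, 2 and 0 reads in Tumor and 12, 11, 5, 2 and 1 in WT, which is near the limit of detection in most libraries. No tested member had ranges that did not overlap, beside 5.85% of all genes tested.

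The WT libraries differed among themselves in a shared way. In 13 of the 18 tested members, WT replicates 1 and 2 both stood above WT replicates 3, 4 and 5, a pattern found in 15.8% of all genes tested. In 12 of the 18 they also stood above every Tumor library, against 9.52% of all genes. The direction of the comparison turned with the libraries used. In most members the libraries left out were the highest or the lowest of WT, so the split itself moves the fold changes. Calls from these fits, here and below, describe the libraries and are no support for a difference between the groups. Without WT replicates 1 and 2, 13 of 18 members had positive log2 fold changes (median 0.89, beside -0.17 over all genes tested). In that fit mt-Co2 and mt-Co3 were called higher in Tumor, while 6.4% of all genes tested were called higher and 1.5% lower. Without WT replicates 3, 4 and 5, all 22 members tested had negative values (median -2.36, beside 0.013 over all genes tested). Of the 22, 9 were called lower, against 2.09% of all genes tested called lower and 2.32% higher. These 9 were mt-Nd1, mt-Nd2, mt-Co1, mt-Co3, mt-Nd4, mt-Nd5, mt-Nd6, mt-Cytb and mt-Tp. With libraries scaled by their T cell genes, which were scarce in WT, all 18 were called lower (median -5.54), as were 90.8% of all genes tested (0.0934% higher, median -3.64).

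**Figure D2:**
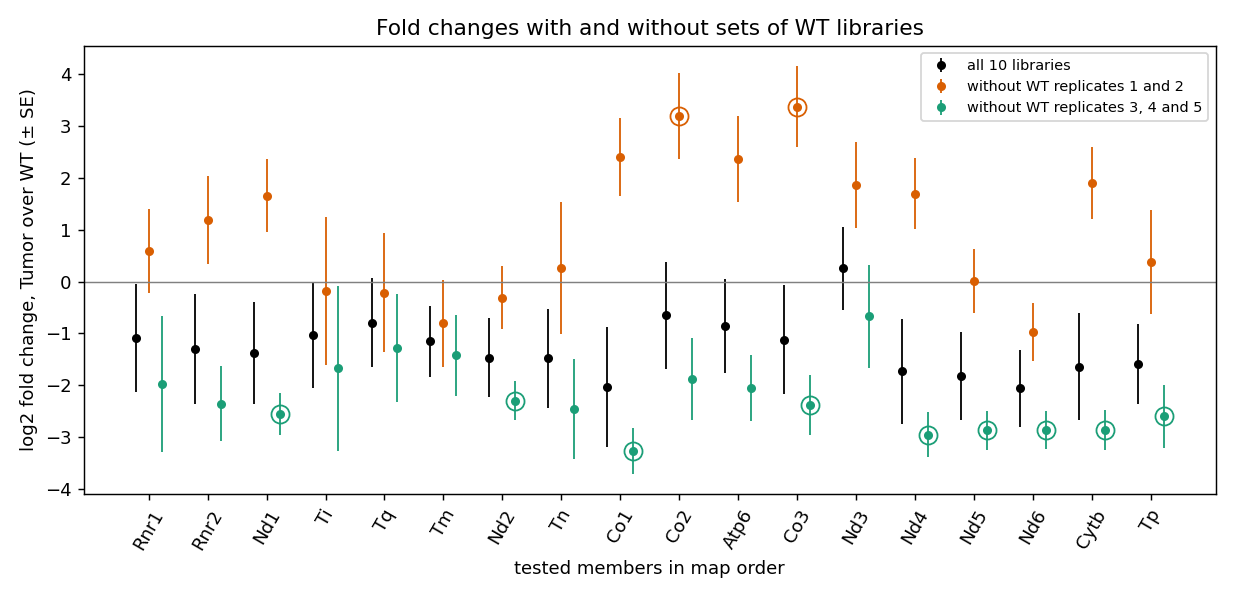
Log2 fold change (Tumor over WT, ± SE) of the 18 tested members, ordered by place on the mitochondrial map, with all 10 libraries and without each set of WT libraries. Rings mark an adjusted p below 0.05. No member is ringed with all libraries, mt-Co2 and mt-Co3 are ringed above 0 without WT replicates 1 and 2, and 9 members are ringed below 0 without WT replicates 3, 4 and 5, of which mt-Co1 lies lowest at -3.27.

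Of the rRNAs, mt-Rnr2 was the most abundant member in every library. mt-Rnr2, the 16S rRNA of the large ribosomal subunit (ENSMUSG00000064339, MT:1094-2675, mm10), stood at 11260, 21260, 19170, 33320 and 11560 CPM in Tumor and at 161500, 18720, 11500, 15820 and 5115 CPM in WT. Both the highest and the lowest of the 10 libraries were WT. Its log2 fold change was -1.30 ± 1.07 (SE, adjusted p = 0.559), and 1.18 ± 0.85 without WT replicates 1 and 2 (adjusted p = 0.439). mt-Rnr1, the 12S rRNA of the small subunit (ENSMUSG00000064337, MT:70-1024), had 2048, 3215, 3304, 7977 and 822 CPM in Tumor and 24440, 706, 2458, 4850 and 1268 CPM in WT. Tumor replicate 5 and WT replicate 2 were the lowest libraries here, though not for mt-Rnr2. The log2 fold change of mt-Rnr1 was -1.09 ± 1.04 (adjusted p = 0.622). Per length, mt-Rnr2 was at 7118 to 21060 CPM per kilobase in Tumor and 3233 to 102100 in WT, and in every library it stood above every other rRNA and coding member.

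Complex I, the NADH dehydrogenase that takes electrons into the chain, has 7 subunits encoded here. mt-Nd1, a membrane subunit (ENSMUSG00000064341, MT:2751-3707), had 576, 907, 872, 2479 and 1670 CPM in Tumor and 7615, 5641, 804, 490 and 279 CPM in WT. mt-Nd4, a proton-pumping subunit (ENSMUSG00000064363, MT:10167-11544), had 183, 293, 373, 1125 and 634 CPM in Tumor and 3661, 3261, 263, 232 and 103 CPM in WT. For both genes WT replicates 1 and 2 were above all Tumor libraries, and WT replicates 3 to 5 fell within or below the Tumor range. With all libraries the log2 fold change was -1.38 ± 0.98 for mt-Nd1 and -1.73 ± 1.01 for mt-Nd4 (adjusted p = 0.496 and 0.405). Without WT replicates 3, 4 and 5 they were -2.56 ± 0.40 and -2.95 ± 0.44 (adjusted p = 0.000104 and 6.047e-05), and without WT replicates 1 and 2 they were 1.66 ± 0.70 and 1.69 ± 0.68 (adjusted p = 0.154 and 0.133).

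In the other well-covered complex I genes, WT replicates 3 and 5 stood closer to the top of the Tumor range or above it. mt-Nd2, a membrane subunit (ENSMUSG00000064345, MT:3914-4951), had 527, 552, 594, 1102 and 575 CPM in Tumor and 3106, 2758, 1721, 595 and 1123 CPM in WT. mt-Nd5, another proton-pumping subunit (ENSMUSG00000064367, MT:11742-13565), had 419, 435, 552, 961 and 1129 CPM in Tumor and 3965, 4783, 1313, 385 and 1107 CPM in WT. mt-Nd6, known as the sole mRNA of the opposite strand (ENSMUSG00000064368, MT:13552-14070, minus strand), had 304, 258, 295, 565 and 446 CPM in Tumor and 2530, 2224, 1179, 501 and 1323 CPM in WT. For mt-Nd6, 4 of 5 WT libraries lay above every Tumor library, and WT replicate 4 lay within the Tumor range. The log2 fold change of mt-Nd6 was -2.06 ± 0.74 (unadjusted p = 0.0118, adjusted p = 0.182), the smallest p among the members, and -2.16 ± 0.53 with DESeq2 (adjusted p = 0.00263). mt-Nd5 had -1.82 ± 0.84 (adjusted p = 0.297), and -1.90 ± 0.65 with DESeq2 (adjusted p = 0.0451). mt-Nd2 had -1.47 ± 0.76 (adjusted p = 0.347). Without WT replicates 1 and 2, mt-Nd2, mt-Nd5 and mt-Nd6 were at -0.31 ± 0.60, 0.01 ± 0.61 and -0.97 ± 0.57, with adjusted p = 0.813, 0.993 and 0.322.

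mt-Nd5 and mt-Nd6 meet tail to tail, and their annotated ends share 14 bases on opposite strands. Reads from a gene and from RNA opposite to it cannot be told apart here, so the ratio below compares genes and not strands. The strand setting of the counting is not given in the sources used here. The last 60 bases of each gene are shown because the pair carries the lowest p-values, with the shared bases in capitals (MT:13506-13565, plus strand, and MT:13552-13611, minus strand).
mt-Nd5: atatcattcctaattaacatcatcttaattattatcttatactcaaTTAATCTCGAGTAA
mt-Nd6: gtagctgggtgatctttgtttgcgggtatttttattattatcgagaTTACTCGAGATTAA
The log2 ratio of mt-Nd6 to mt-Nd5 counts, which does not depend on library scaling, was -0.46, -0.75, -0.90, -0.77 and -1.34 in Tumor and -0.65, -1.11, -0.16, 0.38 and 0.26 in WT. The difference of means was -0.59 (2-sided exact permutation p = 0.111, 0.417 adjusted over 5 ratios, n = 5 each). WT replicates 4 and 5 were the libraries with more reads on mt-Nd6 than on mt-Nd5.

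In complex III, mt-Cytb, the cytochrome b subunit that hands on electrons from ubiquinol (ENSMUSG00000064370, MT:14145-15288), had 607, 636, 804, 2099 and 1394 CPM in Tumor and 7734, 6158, 623, 287 and 244 CPM in WT. WT replicates 4 and 5 were below every Tumor library and WT replicates 1 and 2 above. Its log2 fold change was -1.64 ± 1.03 (adjusted p = 0.434). In complex IV, cytochrome c oxidase, mt-Co1 forms the catalytic core (ENSMUSG00000064351, MT:5328-6872). It had 445, 974, 1122, 2531 and 2448 CPM in Tumor and 16270, 8507, 414, 437 and 188 CPM in WT. The WT libraries thus split to either side of the whole Tumor range, and the log2 fold change of -2.03 ± 1.15 did not pass (adjusted p = 0.391). Without WT replicates 1 and 2 it was 2.40 ± 0.75 (adjusted p = 0.0511), and without WT replicates 3, 4 and 5 it was -3.27 ± 0.44 (adjusted p = 1.858e-05). mt-Cytb behaved likewise, at 1.90 ± 0.69 (adjusted p = 0.0916) and -2.86 ± 0.39 (adjusted p = 1.884e-05).

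**Figure D3:**
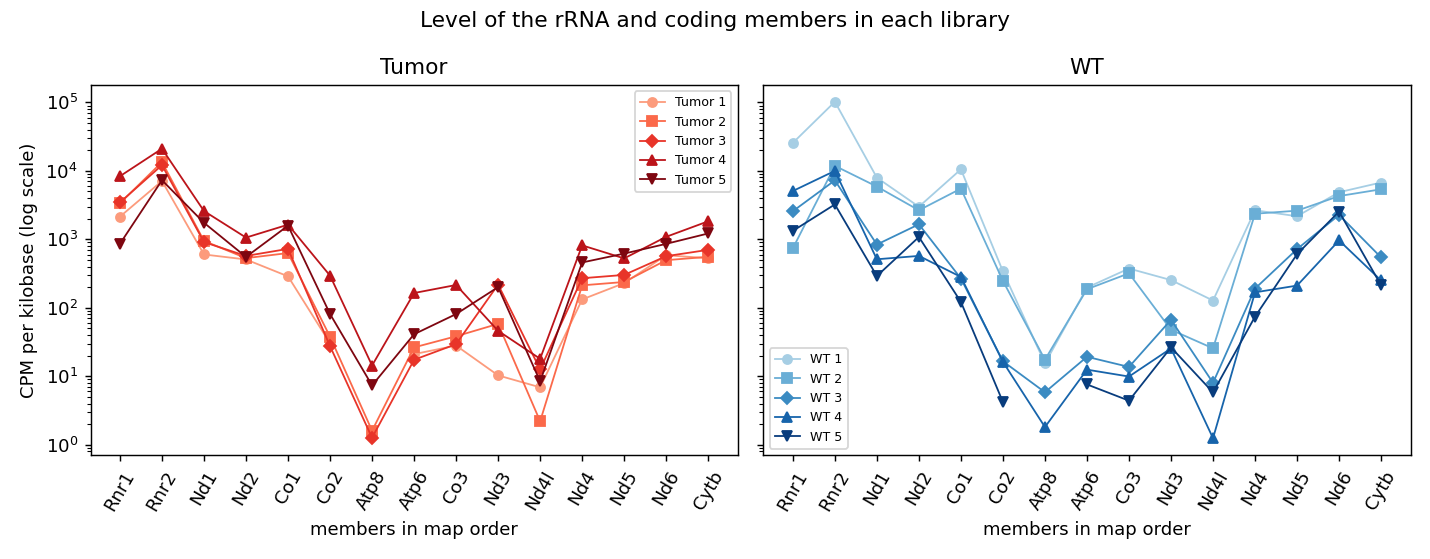
Level of the rRNA and coding members in each library, in CPM per kilobase of gene on a log axis, ordered by place on the mitochondrial map, with Tumor on the left and WT on the right. Values of 0 (mt-Atp8 in Tumor replicate 1 and WT replicate 5) are not drawn. Between mt-Co2 and mt-Nd4l all libraries drop below the level of the genes on either side, and WT replicates 1 and 2 run above WT replicates 3 to 5 for most genes.

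The remaining complex IV genes, mt-Atp6, mt-Nd3 and mt-Nd4l have a near-identical nuclear copy, so their counts are uncertain. mt-Atp8 lies within the same stretch and has no annotated copy of its own. A blastn search of the M21 transcripts placed 7 annotated pseudogenes in a row on chromosome 1 (24611535 to 24616197, minus strand), which match MT bases 6390 to 11042 in the same order with 2 mismatches in 4140 aligned bases. Gm28661 is identical to mt-Co2 over 681 bases, Gm10925 to mt-Atp6 over 678, Gm28437 to mt-Co3 over 783, Gm10222 to mt-Nd4l over 294 and Gm28439 to mt-Nd4 over 876. Distances between the neighbouring aligned parts of these genes are also the same on both chromosomes, except between those of mt-Nd3 and mt-Nd4l. That distance is 73 bases on MT and 74 on chromosome 1, counted from the ends of the alignments. The treatment of reads that map to more than 1 place is not given in the sources used here. Both mismatches are in capitals, from base 1 of mt-Nd3 (MT:9459-9518) with its copy Gm28438 (chr1:24613060-24613119), and from base 1063 of mt-Co1 (MT:6390-6449) with its copy Gm29216 (chr1:24616129-24616188). Counting from the first base of each mitochondrial gene, they are T3C and A1066T.
mt-Nd3: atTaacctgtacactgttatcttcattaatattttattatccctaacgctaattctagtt
Gm28438: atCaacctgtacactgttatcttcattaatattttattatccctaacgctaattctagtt
mt-Co1: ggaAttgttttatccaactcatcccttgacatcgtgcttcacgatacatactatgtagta
Gm29216: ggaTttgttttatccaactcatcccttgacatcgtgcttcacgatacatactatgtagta
For comparison, the first 60 bases of mt-Co2 (MT:7013-7072) hold no base that differs from Gm28661.
mt-Co2: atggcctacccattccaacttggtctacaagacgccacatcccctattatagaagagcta

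Levels in the copied stretch were low in all libraries. The 6 coding genes that lie wholly inside it had median levels of 15.7 to 105 CPM per kilobase in Tumor and 5.11 to 226 in WT. The 5 coding genes outside it (mt-Nd1, mt-Nd2, mt-Nd5, mt-Nd6 and mt-Cytb) had medians of 531 to 1089 CPM per kilobase in Tumor and 512 to 4875 in WT. mt-Co2, which carries the copper site that receives electrons from cytochrome c, had 20.8, 25.9, 18.8, 202 and 55.5 CPM in Tumor and 233, 169, 11.3, 11.1 and 2.88 CPM in WT. mt-Co3, the third core subunit, had 22.04, 30.1, 23.1, 169 and 63.6 CPM in Tumor and 294, 250.2, 10.7, 7.78 and 3.46 CPM in WT. In both genes WT replicates 1 and 2 were the highest WT libraries and WT replicates 3 to 5 were below every Tumor library. With all libraries the log2 fold changes were -0.65 ± 1.03 for mt-Co2 and -1.12 ± 1.06 for mt-Co3 (adjusted p = 0.782 and 0.615). Without WT replicates 1 and 2, both were higher in Tumor, by 3.19 ± 0.83 and 3.37 ± 0.78 (adjusted p = 0.0211 and 0.0116). The log2 ratio of mt-Co2 to mt-Co1 averaged -4.93 ± 0.90 in Tumor and -5.62 ± 0.41 in WT (SD, n = 5 each, exact permutation p = 0.167, 0.417 adjusted over 5 ratios).

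Complex V, the ATP synthase, has 2 subunits here: mt-Atp6, which forms part of its proton channel, and mt-Atp8. mt-Atp6 had 14.4, 18.0, 11.9, 112 and 28.0 CPM in Tumor and 134, 127, 13.1, 8.52 and 5.18 CPM in WT. Tumor replicate 4 was the highest Tumor library and lay below WT replicates 1 and 2. The log2 fold change was -0.85 ± 0.90 (adjusted p = 0.659), and -2.48 ± 1.05 with the counts of its nuclear copies added (adjusted p = 0.255). mt-Atp8 was not tested, since the Tumor libraries held at most 17 of its reads and the WT libraries at most 30. The annotated genes share 43 bases, in which a read cannot be given to 1 gene. These bases open mt-Atp6 (MT:7927-7986) and are in capitals.
mt-Atp6: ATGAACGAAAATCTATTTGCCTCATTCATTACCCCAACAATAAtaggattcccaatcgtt
mt-Nd4l, a small complex I subunit with 2 to 31 reads in Tumor libraries and 1 to 217 in WT libraries, was not tested either. It shares 7 bases with mt-Nd4.

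mt-Nd3, a complex I subunit with a loop that moves when the enzyme switches between active and resting states, was the tested member with a positive log2 fold change. It had 3.59, 20.3, 76.0, 16.1 and 69.8 CPM in Tumor and 88.5, 16.6, 23.3, 8.89 and 9.21 CPM in WT (log2 fold change 0.25 ± 0.80, adjusted p = 0.899). The groups overlapped over most of their range. Its reads were shared with Gm28438 very unevenly between libraries. Of the reads on the pair, 5.47%, 82.7%, 96.9%, 11.3% and 84.5% fell on mt-Nd3 in Tumor, and 18.1%, 3.62%, 39.0%, 30.0% and 23.9% did so in WT. The shares were 82.7% or more in Tumor replicates 2, 3 and 5 (lowest 95% Wilson bound 72.6%) and 39.0% or less in the other 7 libraries (highest bound 48.8%). These bounds cover counting error only. The mismatch of the pair is at base 3 of mt-Nd3 (MT position 9461), a site known to vary between C57BL/6 substrains. Whether the libraries differ at this base was not tested, since counts per gene carry no bases. With the counts of all nuclear copies added to their mitochondrial gene, the log2 fold change of mt-Nd3 was -1.61 ± 0.85 (adjusted p = 0.358), and 0 members were called by edgeR. In that fit mt-Atp6 moved most among the members named here, from -0.85 ± 0.90 to -2.48 ± 1.05 (adjusted p = 0.255). mt-Co3 moved from -1.12 ± 1.06 to -1.69 ± 1.14 (adjusted p = 0.469). All 19 members tested were then negative, with a median of -1.59 beside -0.20 over all genes tested.

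The other pairs split their reads as follows. Over all libraries 50.6% of the reads on the mt-Co2 pair fell on mt-Co2, with 50.8 to 63.4% in Tumor and 38.5 to 56.6% in WT. For mt-Co3 the share was 29.2 to 57.1% in Tumor and 21.2 to 36.7% in WT. For mt-Atp6 it was 52.1 to 57.9% in Tumor, and in WT it was 12.2%, 54.5%, 56.4%, 3.47% and 75.0% in replicates 1 to 5. WT replicates 1 and 4 thus had most of these reads on Gm10925, with 5546 and 640 reads. mt-Co1 and mt-Nd4, which lie partly outside the stretch, kept 94.8% and 99.2% of the reads of their pairs. The mt-Nd4l pair varied widely on few reads, with 28.6 to 69.1% on mt-Nd4l in Tumor and 9.68 to 70.5% in WT.

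**Figure D4:**
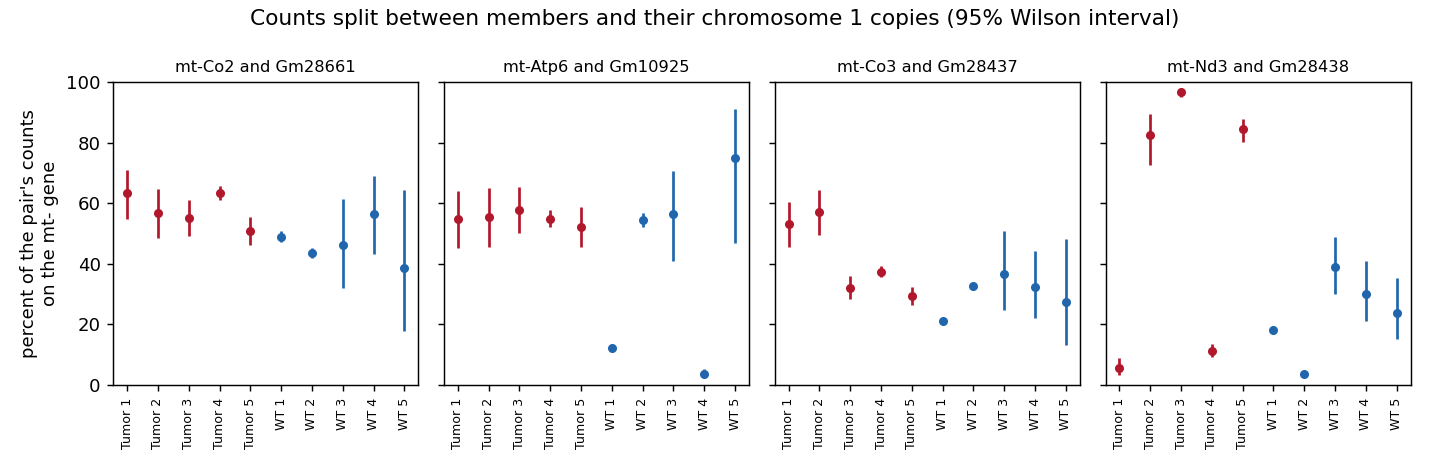
Percent of the counts of 4 gene pairs that were assigned to the mitochondrial gene rather than to its copy on chromosome 1, for each library, with 95% Wilson intervals. The mt-Nd3 pair ranges between 3.62% and 96.9%, whereas the mt-Co2 pair stays between 38.5% and 63.4%.

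tRNA genes had few reads. Of the 22 genes, 5 were tested, 13 had between 13 and 88 reads over all libraries, and 4 had 0 reads in every library. A count of 0 allows up to 0.357 to 1.79 CPM per library, taking 3 counts as the limit. This limit covers counting alone. Loss of tRNA in the copying of polyadenylated RNA, or of reads that map to several places, was not tested. The tested tRNAs were mt-Ti (isoleucine), mt-Tq (glutamine), mt-Tm (methionine), mt-Tn (asparagine) and mt-Tp (proline). They are shown with the bases that an overlapping neighbour shares in capitals, at MT:3706-3774 (plus strand), MT:3772-3842 (minus), MT:3845-3913 (plus), MT:5089-5159 (minus) and MT:15356-15422 (minus).
mt-Ti: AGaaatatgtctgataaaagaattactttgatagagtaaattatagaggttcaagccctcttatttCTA
mt-Tq: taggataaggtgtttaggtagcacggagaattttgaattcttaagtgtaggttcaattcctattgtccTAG
mt-Tm: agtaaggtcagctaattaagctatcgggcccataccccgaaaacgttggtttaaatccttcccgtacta
mt-Tn: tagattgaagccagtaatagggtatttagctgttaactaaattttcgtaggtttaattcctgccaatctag
mt-Tp: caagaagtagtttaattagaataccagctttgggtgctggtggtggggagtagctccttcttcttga
mt-Tp had 54, 8, 93, 57 and 58 reads in Tumor and 441, 301, 31, 12 and 18 in WT (log2 fold change -1.59 ± 0.77, adjusted p = 0.318). mt-Tm, which lies directly before mt-Nd2, had 80, 33, 132, 23 and 12 reads in Tumor and 221, 148, 62, 30 and 68 in WT (log2 fold change -1.15 ± 0.68, adjusted p = 0.409). In both genes the groups overlapped in reads and in CPM. The log2 fold change was -1.04 ± 1.01 for mt-Ti, -0.79 ± 0.85 for mt-Tq and -1.48 ± 0.96 for mt-Tn (adjusted p = 0.627, 0.665 and 0.452).

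The 4 tRNA genes without reads were mt-Tf (phenylalanine, MT:1-68), mt-Ts1 (serine, MT:6870-6938, minus strand), mt-Td (aspartate, MT:6942-7011) and mt-Tk (lysine, MT:7700-7764). All but mt-Tf lie inside the stretch that is copied on chromosome 1. The 5 tRNA genes in that stretch had 48 reads in all, against 3150 for the 17 outside it. The sequences of the 4 genes are shown since they define what had no reads, with the bases shared with mt-Co1 in capitals.
mt-Tf: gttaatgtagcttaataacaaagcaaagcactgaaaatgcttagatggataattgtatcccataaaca
mt-Ts1: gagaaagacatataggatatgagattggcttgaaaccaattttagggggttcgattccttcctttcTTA
mt-Td: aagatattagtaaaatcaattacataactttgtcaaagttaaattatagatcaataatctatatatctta
mt-Tk: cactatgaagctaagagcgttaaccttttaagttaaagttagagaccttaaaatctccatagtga

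The make-up of the mitochondrial mRNA counts set WT replicates 3, 4 and 5 apart from the other 7 libraries. mt-Nd2, mt-Nd5 and mt-Nd6, a trio chosen after the values were seen, made up 40.03%, 29.98%, 30.4%, 23.1% and 25.2% of the coding counts in Tumor and 21.02%, 28.8%, 66.04%, 49.98% and 80.96% in WT. mt-Co1 took 14.2%, 23.5%, 23.6%, 22.3% and 28.7% in Tumor and 35.6%, 25.1%, 6.49%, 14.7% and 4.29% in WT, with the lowest shares in WT replicates 3 and 5. mt-Nd6 alone reached 18.5%, 16.9% and 30.1% in WT replicates 3, 4 and 5, against 4.97 to 9.73% in Tumor and 5.54% and 6.56% in WT replicates 1 and 2. These 3 WT libraries also had the fewest counts and the largest share on Gm10800. The part of either in the make-up was not tested.

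**Figure D5:**
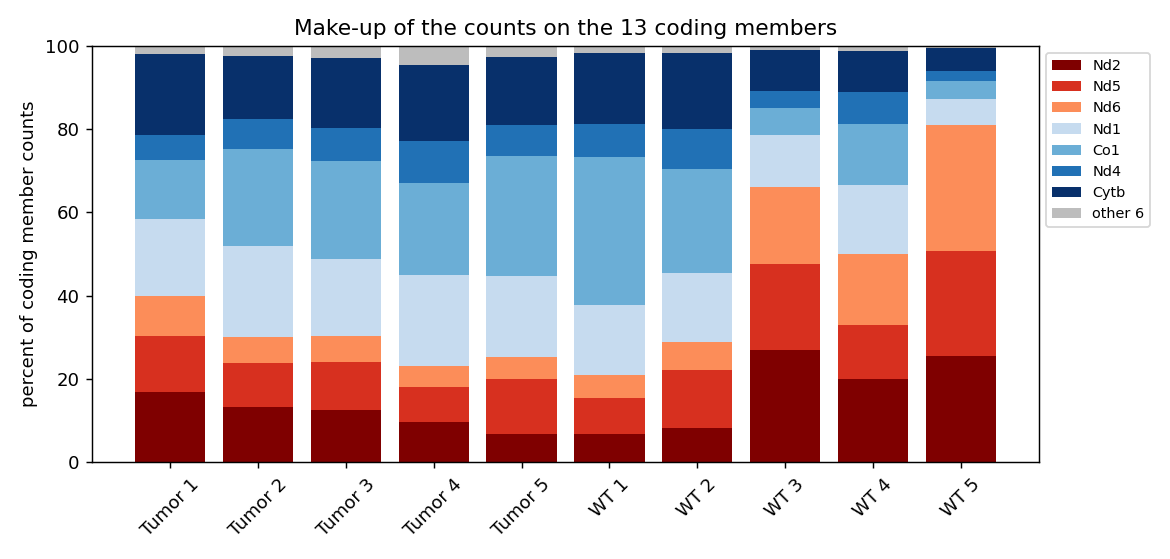
Stacked percent of the counts on the 13 coding members for each library, with mt-Nd2, mt-Nd5 and mt-Nd6 at the base. The base reaches 66.04%, 49.98% and 80.96% in WT replicates 3, 4 and 5 and no more than 40.03% in the other libraries.

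The other ratios between members, also free of library scaling, differed between the groups by less than the spread between replicates. The log2 ratio of mt-Rnr2 to mt-Rnr1 averaged 2.72 ± 0.66 in Tumor and 2.68 ± 1.20 in WT (SD, n = 5 each, exact permutation p = 0.944). The log2 ratio of mt-Nd1, the first mRNA after the rRNAs, to mt-Rnr2 averaged -3.97 ± 0.73 in Tumor and -3.84 ± 1.25 in WT (n = 5 each, exact permutation p = 0.825). That of mt-Cytb to mt-Co1 averaged -0.35 ± 0.49 in Tumor and -0.24 ± 0.70 in WT (n = 5 each, exact permutation p = 0.794). All 3 had an adjusted p = 0.944 over the 5 ratios, where 5 libraries against 5 can reach a smallest p of 0.00794. Single libraries stood apart: WT replicate 2 had the highest value of the 10 for the first ratio (4.73) and for the second (-1.73).

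Nuclear genes that maintain, transcribe and translate the mitochondrial genome did not pass the test either. Over all genes tested, 1.59% were called and 16.1% had an unadjusted p below 0.05, so 0 calls in short lists say little. Of 20 tested genes of mitochondrial transcription and DNA maintenance, 0 were called, with a median log2 fold change of 0.07 and 0 at an unadjusted p below 0.05. Tfam, which packs and transcribes the genome, had the highest mean of them over all 10 libraries, at 50.4 ± 25.3 CPM in Tumor and 33.6 ± 21.7 CPM in WT (SD, n = 5 each), and its log2 fold change was 0.66 ± 0.56 (adjusted p = 0.570). Dguok and Tk2, kinases that supply nucleotides for mitochondrial DNA, had 1.42 ± 0.69 and 1.10 ± 0.54 (adjusted p = 0.320 and 0.319). Of 26 RNA processing and decay genes 0 were called (median -0.09, 3 at an unadjusted p below 0.05). Fastkd2, an RNA-binding protein of mitochondrial ribosome assembly, stood at 12.0 ± 5.32 CPM in Tumor and 52.6 ± 39.6 CPM in WT (log2 fold change -1.76 ± 0.58, adjusted p = 0.148). Trnt1, which adds the CCA end to tRNAs, had 1.60 ± 0.64 (adjusted p = 0.224) and Rexo2, an exonuclease that clears short RNAs, had 1.79 ± 0.73 (adjusted p = 0.236).

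Of 12 translation factors 0 were called (median -0.04, 1 at an unadjusted p below 0.05). Tufm, the elongation factor, had the highest mean over all 10 libraries, at 69.0 ± 13.1 CPM in Tumor and 52.9 ± 67.7 CPM in WT (log2 fold change 0.28 ± 0.81, adjusted p = 0.887). Mtrf1, a release factor, had -2.88 ± 1.03 (adjusted p = 0.180) and Oxa1l, which inserts the new proteins into the inner membrane, had 0.99 ± 0.52 (adjusted p = 0.355). Of 11 regulators of mitochondrial biogenesis 0 were called (median -0.16, 1 at an unadjusted p below 0.05). Beside these counts, as for the translation factors, stand 1.59% called and 16.1% at such a p among all genes tested. Ppargc1b, a coactivator of mitochondrial genes, stood at 8.53 ± 2.56 CPM in Tumor and 27.2 ± 17.1 CPM in WT (log2 fold change -1.69 ± 0.66, adjusted p = 0.216). Gabpb1 and Yy1, subunits or partners of factors that act on nuclear genes for mitochondria, had 1.05 ± 0.53 and 0.73 ± 0.46 (adjusted p = 0.341 and 0.430). DESeq2 called Fastkd2, Mtrf1 and Ppargc1b lower, 1 in each of these 3 lists, where it called 4.48% of all genes tested lower, and limma voom called 0 in these 4 lists.

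Nuclear subunits of the same complexes gave 0 calls among 7 of complex I, 9 of complex III, 10 of complex IV and 11 of complex V, with 0 at an unadjusted p below 0.05 and 0 by DESeq2 and limma voom. Over all genes tested, edgeR called 1.59%, and 16.1% had an unadjusted p below 0.05. The median log2 fold changes of the subunits were -0.15, -0.49, -0.69 and -0.21, in the order of the complexes. These genes turned with the WT libraries as the mitochondrial ones did. Without WT replicates 1 and 2, 5, 7, 9 and 9 of them were called higher in Tumor, beside 6.4% of all genes tested, and without WT replicates 3, 4 and 5, 2, 8, 10 and 7 were called lower, beside 2.09%. Cox4i1, a complex IV subunit, had 533, 534, 839, 630.0 and 1259 CPM in Tumor and 2078, 3056, 59.7, 217 and 40.3 CPM in WT (log2 fold change -0.69 ± 1.02, adjusted p = 0.766). The WT libraries lay on either side of the Tumor range, as for mt-Co1. The named subunits of complex I were Ndufv1 (-0.48 ± 0.78) and Ndufv2 (-0.15 ± 0.88). Those of complex III were Uqcr10 (-0.87 ± 1.01), Cyc1 (-0.78 ± 1.01) and Uqcrh (-0.13 ± 0.85). Those of complex IV and V were Cox7b (-1.07 ± 0.95), Cox6c (-0.77 ± 0.93), Atp5g1 (-1.06 ± 0.92), Atp5e (0.49 ± 0.85) and Atp5b (-0.41 ± 0.92). The adjusted p of these 10 ranged from 0.584 to 0.955.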

How the data were processed

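The authors deposited whole-number read counts for 54532 genes, not normalized. Per the submitters' processing notes the build was mm10 and the tools were HISAT2 2.0.5 and featureCounts 1.5.0-p3. Annotation release, strand setting and treatment of reads with several matches are not given in the sources used here. The single-library files held the same counts as the series table. Groups and replicate numbers came from the sample titles. The members and gene lists were chosen with earlier results of these data known. The smallest chi-square per degree of freedom over 45 library pairs was 29.8, so no pair of libraries agreed within counting error. Separate libraries made from the same animal would not be found by this check.

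Tests used edgeR 4.0.16 in R 4.3.3 (filterByExpr with a minimum count of 10 and total of 15, TMM, robust quasi-likelihood F test, group as the only term) on the whole table, with Benjamini-Hochberg adjustment. SE is the log2 fold change over the square root of F. The common dispersion was 0.742. The procedure was tested on simulated data. DESeq2 1.42.0, limma 3.58.1 voom, other scalings, filters and left-out libraries were alternatives. CPM uses the column total, unlike the TMM fold changes. Ratios used a pseudocount of 0.5 and all 252 splits. Nuclear copies were found with BLAST 2.17.0 (identity at least 90% over 100 bases) between GENCODE M21 transcripts (GRCm38), from which printed sequences come. All 13 coding and 2 rRNA genes, tested tRNAs, and from each nuclear list the 2 genes of smallest p and the most abundant were named, except 1 gene that is not reported here.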

Additional observations from a re-analysis of the deposited data

Results flagged for a closer look

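Of 100 sets of 5 libraries examined, 10 held a library far from the others, where the gap to the nearest library was more than 0.71 of the group's range. Chance gives about 1 in 20 for independent sets of normally distributed values. The sets here share libraries and in part the same reads, so their count does not measure an excess over chance. In WT, replicate 1 stood apart in 5 measures. The share of counts on mitochondrially encoded genes was 23.18% there, with the nearest library at 5.343%, and the share on mitochondrial rRNAs was 18.6%, with the nearest at 2.067%. mt-Rnr1 was at 24440 CPM (nearest 4850), mt-Rnr2 at 161500 CPM (nearest 18720) and mt-Nd3 at 88.47 CPM (nearest 23.27). In Tumor, replicate 4 stood apart in 4 genes: mt-Nd2 at 1102 CPM (nearest 594.0), mt-Co2 at 201.9 CPM (nearest 55.54), mt-Atp6 at 112.0 CPM (nearest 28.02) and mt-Co3 at 169.0 CPM (nearest 63.55). Tumor replicate 5 stood apart in Uqcr10, a nuclear complex III subunit, at 494.1 CPM (nearest 224.2).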

How the results depend on the processing

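Replicate numbers did not pair the samples: the correlations of same-numbered libraries ran from -0.126 to 0.038. With the replicate number as a block, edgeR called 138 genes higher and 3 lower, against 293 and 47 without it, and 0 members. The median of the members was then 0.10, and these values turned positive: mt-Rnr1 0.23, mt-Rnr2 0.38, mt-Nd1 0.12, mt-Co1 0.71, mt-Co2 0.93, mt-Atp6 0.18, mt-Co3 1.08, mt-Nd4 0.085, mt-Cytb 0.21, Ndufv1 0.87, Ndufv2 1.503, Uqcr10 0.90, Cyc1 1.72, Uqcrh 1.03, Cox7b 0.97, Cox6c 0.88, Cox4i1 1.40, Atp5g1 0.46 and Atp5b 1.117. All are log2 fold changes, Tumor over WT. With limma voom (0 calls) the median was -0.20 and these were positive: mt-Rnr2 0.11, mt-Nd1 0.06, mt-Co1 0.25, mt-Co2 0.27, mt-Co3 0.26, mt-Cytb 0.10, Ndufv1 0.69, Ndufv2 1.36, Uqcr10 1.41, Cyc1 1.25, Uqcrh 1.27, Cox7b 0.93, Cox6c 1.02, Cox4i1 1.55, Atp5g1 0.62 and Atp5b 1.30. With DESeq2, 2 members, 1 RNA processing gene, 1 translation factor and 1 biogenesis regulator were called, all lower in Tumor. Of all genes tested, it called 4.48% lower and 3.16% higher.

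Scaling by T cell genes gave 18 member calls (median -5.54) and, in the order of the lists in the report, 19, 25, 12, 11, 7, 9, 10 and 11 calls. All were lower in Tumor, as were 90.8% of all genes tested. It turned mt-Nd3 to -4.08, Tk2 -2.21, Dguok -2.54, Tfam -3.03, Trnt1 -1.90, Rexo2 -1.83, Oxa1l -2.67, Tufm -3.65, Gabpb1 -2.28, Yy1 -2.83 and Atp5e -3.42. With nuclear copies added mt-Nd3 was -1.61, and mt-Atp6 was -2.48 against -0.85 without them.

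Without WT replicates 1 and 2 there were 2 member calls (median 0.89) and 1, 4, 1, 0, 5, 7, 9 and 9 calls in the lists. All were higher in Tumor except Fastkd2, which was lower. Of all genes tested in that fit, 6.4% were called higher and 1.5% lower. Values that turned positive were mt-Rnr1 0.59, mt-Rnr2 1.18, mt-Nd1 1.66, mt-Tn 0.26, mt-Co1 2.40, mt-Co2 3.19, mt-Atp6 2.37, mt-Co3 3.37, mt-Nd4 1.69, mt-Nd5 0.012, mt-Cytb 1.90, mt-Tp 0.38, Ndufv1 2.29, Ndufv2 3.22, Uqcr10 2.64, Cyc1 3.37, Uqcrh 2.41, Cox7b 2.46, Cox6c 2.37, Cox4i1 3.05, Atp5g1 2.21 and Atp5b 2.55. Differences in share became 1.09 (all members), 0.180 (coding) and 0.912 (rRNA) percentage points, and the mt-Nd1 to mt-Rnr2 ratio 0.38. Without WT replicates 3, 4 and 5 there were 9 member calls (median -2.36) and 0, 0, 0, 1, 2, 8, 10 and 7 in the lists. All of these were lower in Tumor, where 2.09% of all genes tested were called lower and 2.32% higher. Values that turned negative were mt-Nd3 -0.67, Tufm -0.97 and Atp5e -0.61. Differences in share were then -11.3 (all members), -3.34 (coding), -7.99 (rRNA, against -2.65 with all libraries) and -0.0101 (tRNA) points, and the ratios -1.01 (mt-Rnr2 to mt-Rnr1), 0.42 (mt-Cytb to mt-Co1) and 0.031 (mt-Nd6 to mt-Nd5).

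Leaving out 1 library at a time gave 0 member calls each time. Log2 fold changes that changed sign ranged from -1.53 to 0.80 for mt-Rnr1, -1.60 to 0.74 for mt-Rnr2 and -1.70 to 0.28 for mt-Co2 (positive without WT replicate 1), and -0.21 to 1.56 for mt-Nd3 (negative without Tumor replicate 3). They ranged from -0.018 to 1.38 for Tufm, -0.78 to 0.65 for Ndufv1, -0.46 to 0.78 for Ndufv2, -1.10 to 0.30 for Cyc1, -0.43 to 0.52 for Uqcrh, -1.002 to 0.25 for Cox4i1 and -0.72 to 0.66 for Atp5b. The difference in share ranged from -5.31 to 0.211 points for all members and -3.72 to 0.768 for rRNAs. Ratio differences ranged from -0.42 to 0.40 (mt-Nd1 to mt-Rnr2), -0.23 to 0.55 (mt-Rnr2 to mt-Rnr1) and -0.32 to 0.10 (mt-Cytb to mt-Co1). The causes of these changes were not tested. The other scalings and filters changed no direction among the members. The SE of the members' log2 fold changes was 0.68 to 1.15, which limits the size of difference that could be called.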

Other observations

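Other classes of RNA also differed between libraries. Nuclear rRNA rows held 8.05%, 12.4%, 5.59%, 1.73% and 1.63% of the counts in Tumor and 2.41%, 0.533%, 6.30%, 12.0% and 4.66% in WT, in the order of replicate number. Tumor replicate 2 was the highest library in nuclear rRNA, and WT replicate 1 was the highest in mitochondrial rRNA. Long intergenic noncoding RNAs held 1.52 to 2.51% in Tumor and 1.73%, 1.39%, 4.13%, 3.08% and 4.32% in WT.

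Nuclear copies of mitochondrial genes outside chromosome 1 had few reads. Gm11408 on chromosome 4 matches mt-Nd6 with 93.64% identity over 519 bases and had 169 reads in all libraries together, against 48119 on mt-Nd6. Gm13339 on chromosome 2 matches 510 bases of mt-Nd2 with 96.67% identity and had 197 reads, against 64434 on mt-Nd2.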
